A study of Mus musculus with 12 samples.

Results

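Microglia are the resident macrophages of the brain, and 32 genes that mark them were followed here in total RNA of the mouse hippocampus. The genes were chosen by name from a list of microglia markers, though with earlier results of these data known. All 32 were found among the 54532 genes of the deposited transcript tables. Microglia depend on the receptor Csf1r for survival and on the transcription factors Spi1 (PU.1) and Irf8 for their identity. They sense neurons and injury through purinergic and chemokine receptors, take up debris through receptors that signal by the adaptor Tyrobp, and make the C1q complement protein that tags synapses for removal.

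The libraries came from 3-month-old mice, with 3 libraries in each of 4 groups: Atrx-cKO females, control females, Atrx-cKO males and control males. Atrx encodes a chromatin remodeller on the X chromosome, and the title of the series places its deletion in neurons, so microglia are not the cells that the deletion is said to target. Neither the Cre driver nor the strain nor the controls' alleles are stated in the sources used here. No label ties a library to 1 mouse, so p-values measure the spread between libraries. In bulk tissue, fewer microglia and less RNA per microglial cell cannot be told apart.

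Atrx itself had a deposited level of 31.0, 36.1 and 38.2 FPKM in cKO females against 55.6, 58.8 and 63.6 FPKM in control females, and of 34.2, 32.3 and 36.5 FPKM in cKO males against 46.9, 40.2 and 42.1 FPKM in control males. The groups did not overlap in either sex (exact two-sided permutation test within sex p = 0.1, the smallest that 3 against 3 allows; p = 0.005 over both sexes, also the smallest possible). Depth ran from 1.16 to 8.64 Gb of mapped sequence. Genes for odour and pheromone receptors, which are transcribed mainly in sensory epithelia, were covered unequally: their median, called background here, was 0.305, 1.97 and 2.25 FPKM in cKO females 1 to 3, against 0.180, 0.0863 and 0.602 FPKM in control females. It was 0.0205, 0.286 and 0.0178 FPKM in cKO males, against 0.0276, 0.0128 and 0.00664 FPKM in control males. Libraries cKO female 2 and cKO female 3 stood apart from the rest in this measure. For comparisons the background was therefore subtracted from each gene's coverage per exon length and libraries were scaled to each other, which gives what is called the subtracted level below, on the FPKM scale.

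The background reached the level of many microglia genes in the female libraries. In cKO female 2 and cKO female 3, 7 and 8 of the 32 genes lay below it, and 18 and 21 lay below 2 times its value. Below 2 times the background lay 1 gene in cKO female 1, 8 in control female 3, 2 in cKO male 2 and 0 in each of the other 7 libraries. For many of these genes, then, 2 of the 3 cKO female libraries held little coverage above background.

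**Figure D1:**
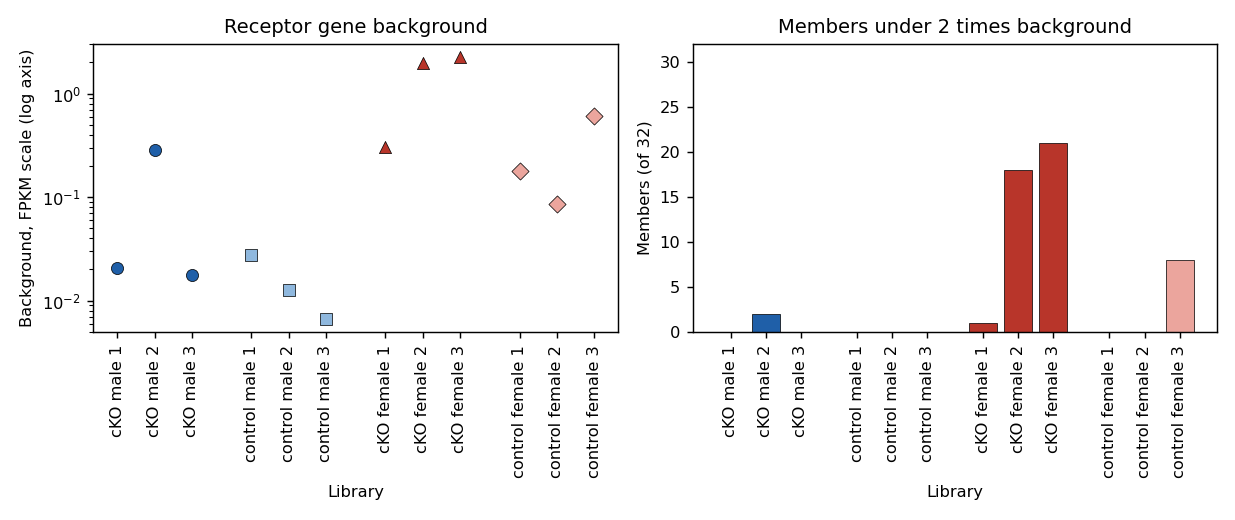
The left panel plots the background of receptor genes in each library (FPKM scale, log axis), and the right panel the number of the 32 microglia genes below 2 times that background. Libraries cKO female 2 and 3 have backgrounds of 1.97 and 2.25 and hold 18 and 21 such genes; the 3 control males have 0.

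All 32 genes had FPKM above 0 in each library, at levels spread over about 2 orders of magnitude. Ordered by mean subtracted level in control males, the group with the lowest background, the lysosomal proteases led: Ctss (cathepsin S) at 68.3 ± 3.76 and Ctsd (cathepsin D, which neurons and astrocytes also make) at 32.8 ± 8.57 (SD, n = 3). The ADP receptor P2ry12 followed at 14.0 ± 0.788, C1qa at 12.5 ± 2.06 and the lysophosphatidylserine receptor Gpr34 at 12.3 ± 2.27, which did not differ from each other beyond their spread. Lowest was Ptprc (CD45, the leukocyte phosphatase), at 0.339 ± 0.0435. These values are per length of all annotated exons of a gene, so the order across genes also depends on the annotation. Ptprc has 18313 such bases. By median deposited FPKM over the 12 libraries it stood at 2.24, and Csf3r was lowest at 0.920.

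The transcription factors were the lowest functional group on the subtracted scale. Spi1 had subtracted levels of 0.408, 0.365 and 0.487 in control males and Irf8 of 0.420, 0.345 and 0.338, both below the minimum mean of 1 used for testing. Only Sall1, a zinc finger repressor that sets microglial identity in mice, passed that filter, at 1.80 ± 0.132 in control males. In total 24 of the 32 genes passed, and Fcer1g, Siglech, Csf3r, Laptm5, Spi1, Irf8, Ptprc and Olfml3 did not. A gene high in 1 group passes such a filter more easily, so the 24 are not the whole set.

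Spread between libraries also differed by group. The median coefficient of variation of deposited FPKM over the 32 genes was 31.5% in cKO females against 16.1% in control females, and 15.8% in cKO males against 14.3% in control males. Ptprc and Cx3cr1 varied most over the 12 libraries, with a highest value 8.71 and 8.19 times the lowest. Ptprc reached 12.6 and 12.8 FPKM in cKO females 2 and 3, against 2.83 FPKM in cKO female 1 and at most 4.21 FPKM in the other libraries. After subtraction Ptprc was 1.09 and 0.621 in those libraries, against 0.234 to 0.389 in the other 10.

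**Figure D2:**
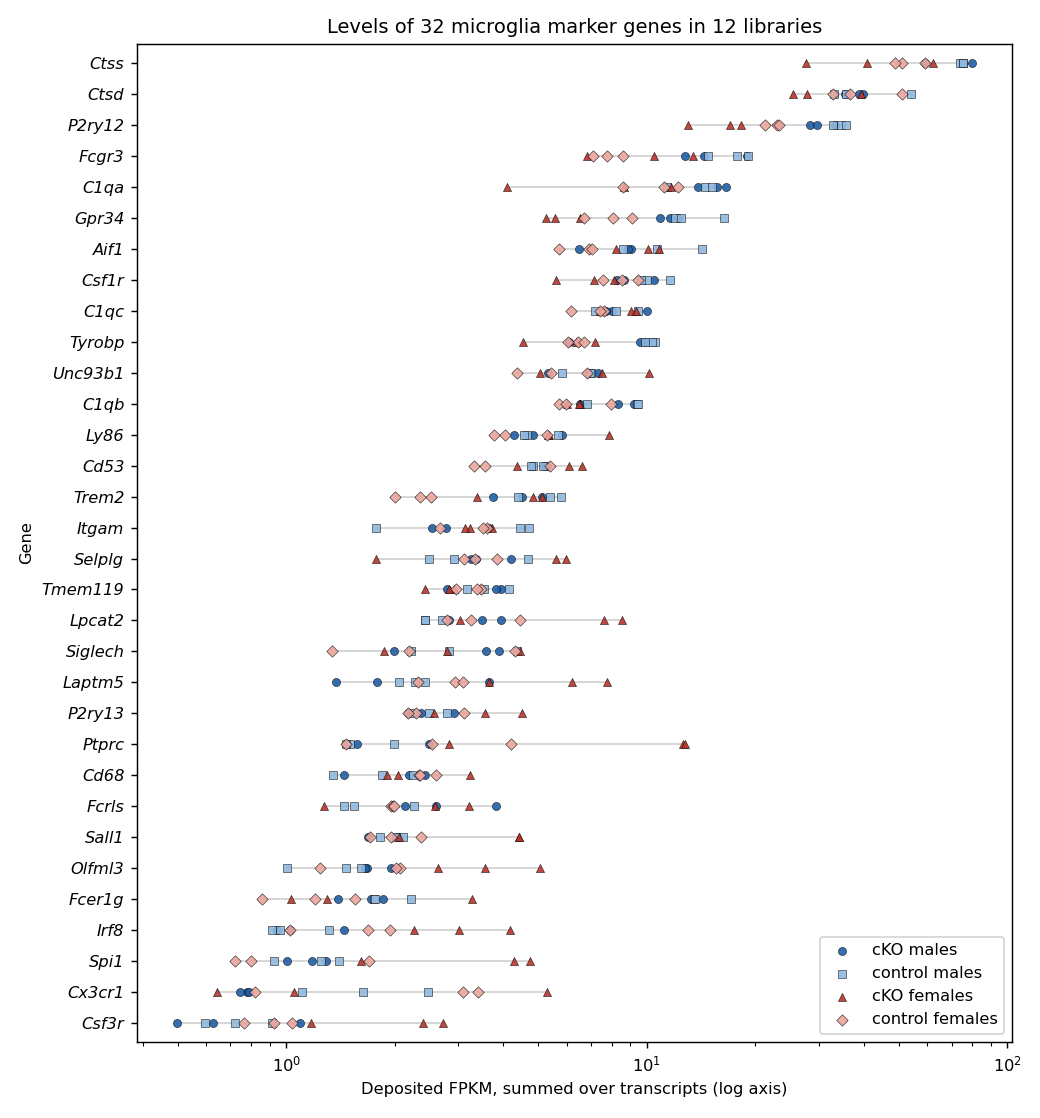
Each point is the deposited FPKM of a gene in 1 library (log axis), with genes ordered by their median over 12 libraries and symbols by group. Ctss and Ctsd stand highest; for low genes such as Ptprc, Spi1 and Csf3r the highest points are cKO females 2 and 3, the libraries with a background near 2.

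Start-site regions were searched because many macrophage genes carry sites for PU.1, whose core is written here as GAGGAA. RefSeq start sites on GRCm38.p6 were found for 24 of the 32 genes, and the 250 bases before each start were searched on both strands. A match was present for 14 of the 24 genes (58.3%), against 25.9% of 27025 genes with such a window. Counted over windows, of which some genes have several that overlap, it was 51.7% of 29 against 23.3% of 32851. The longer motif GAGGAAGT, which contains the shorter one, was found for C1qc alone (2.79% of all genes), and the joint motif of PU.1 and IRF factors, GGAA and GAAA with any 2 bases between them, for Lpcat2 alone (2.68% of all genes). A match of this kind is a description of letters, not evidence of binding. Genes without a window were Csf1r, Unc93b1, Tmem119, Tyrobp, Selplg, Gpr34, C1qa and Spi1.

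The first 4 regions below show what a match looks like, and that of Olfml3, an olfactomedin-like protein, shows a window without one. They were chosen among windows that overlap no annotated exon. None of the first 4 genes was called in a main comparison, and Olfml3 was below the filter and not tested; Irf8 and Sall1 also had such windows without a match. The windows of Aif1 and Fcgr3, which were called, hold a match but overlap annotated exons by 16 and 27 bases and are not shown. The regions come from RefSeq (GRCm38.p6) and run 5′ to 3′ on the strand of the gene up to the base before the start; capitals mark GAGGAA or its reverse complement. They lie at chr3:95526536-95526785 on the plus strand for Ctss, chr17:48346151-48346400 on the plus strand for Trem2, chr4:136886201-136886450 on the minus strand for C1qb, chr7:128062390-128062639 on the plus strand for Itgam and chr3:103738002-103738251 on the minus strand for Olfml3.
Ctss: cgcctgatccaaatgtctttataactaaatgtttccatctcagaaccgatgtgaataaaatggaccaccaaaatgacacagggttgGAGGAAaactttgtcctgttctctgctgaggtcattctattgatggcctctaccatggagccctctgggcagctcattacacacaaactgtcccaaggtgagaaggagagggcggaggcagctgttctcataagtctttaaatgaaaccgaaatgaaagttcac
Trem2: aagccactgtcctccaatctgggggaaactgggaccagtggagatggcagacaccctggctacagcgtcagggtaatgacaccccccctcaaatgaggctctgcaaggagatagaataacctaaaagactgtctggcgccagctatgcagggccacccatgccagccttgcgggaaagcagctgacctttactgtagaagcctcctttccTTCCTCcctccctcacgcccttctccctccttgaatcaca
C1qb: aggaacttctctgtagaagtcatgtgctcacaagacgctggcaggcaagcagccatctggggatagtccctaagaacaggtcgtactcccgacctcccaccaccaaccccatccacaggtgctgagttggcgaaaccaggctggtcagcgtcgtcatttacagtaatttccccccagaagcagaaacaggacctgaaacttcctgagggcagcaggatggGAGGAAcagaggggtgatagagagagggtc
Itgam: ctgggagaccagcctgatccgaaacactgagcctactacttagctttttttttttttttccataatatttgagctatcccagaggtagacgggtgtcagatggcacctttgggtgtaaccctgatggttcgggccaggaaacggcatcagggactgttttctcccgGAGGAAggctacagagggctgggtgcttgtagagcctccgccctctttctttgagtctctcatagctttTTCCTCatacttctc
Olfml3: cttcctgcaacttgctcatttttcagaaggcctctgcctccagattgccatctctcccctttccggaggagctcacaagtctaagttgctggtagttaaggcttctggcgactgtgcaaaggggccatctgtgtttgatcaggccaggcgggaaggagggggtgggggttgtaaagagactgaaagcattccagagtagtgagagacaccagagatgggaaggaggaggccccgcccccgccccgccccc
The match begins 164 bases before the start in Ctss, 40 in Trem2 and 30 in C1qb, and Itgam (integrin alpha M, CD11b) holds 2, at 84 and 15 bases.

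Atrx deletion was first compared with control within females. No microglia gene passed the threshold: 0 of 24 had an adjusted p under 0.05 (limma, Benjamini-Hochberg over 15048 genes), where 0.0731% of all genes did. At an unadjusted p under 0.05 there were 5 of 24 (Tmem119, Gpr34, Cd53, Sall1 and Selplg), against 29.3% of all genes. The median log2 change of the 24 was 0.02, the same as that of all genes, with 13 above 0 and 11 below. The smallest adjusted p was 0.114. Subtracted levels did not overlap for 2 genes that were higher (Trem2 and Aif1) and 2 that were lower (Gpr34 and Selplg) in cKO females, where 10.2% and 7.5% of all genes did so.

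Among receptors and adaptors, the 7 tested genes had log2 changes of -0.88 to 0.58 in females. The Fc receptor Fcgr3 had subtracted levels of 3.92, 8.05 and 11.0 in cKO females, against 4.82, 4.04 and 4.95 in control females (log2 change 0.58, SE 0.282, adjusted p = 0.198 by limma). Only cKO females 2 and 3 lay above the controls. Selplg (P-selectin ligand) had subtracted levels of 0.452, 0.798 and 0.000 in cKO females, against 1.03, 1.0 and 0.939 in control females, without overlap (log2 change -0.81, SE 0.353, adjusted p = 0.16). In deposited FPKM the sign was the other way, 1.78, 5.96 and 5.59 FPKM in cKO females against 3.33, 3.11 and 3.84 FPKM in control females. Trem2, a lipid receptor, did not overlap either, with 1.10, 1.02 and 0.920 in cKO females against 0.783, 0.699 and 0.689 in control females, and did not pass (log2 change 0.31, adjusted p = 0.342).

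Purinergic and chemokine receptors in females centred below 0, with a median log2 change of -0.39 over 4 genes. Gpr34 had subtracted levels of 5.51, 4.66 and 4.43 in cKO females, against 6.80, 5.63 and 8.09 in control females. All cKO females lay below all control females, on the subtracted and on the deposited scale. The log2 change was -0.44 (SE 0.156, adjusted p = 0.118), and its interval of 2 SE ran from -0.75 to -0.13. P2ry12 had 6.75, 9.70 and 5.67 in cKO females, against 10.5, 7.88 and 10.6 in control females, with overlap (log2 change -0.39, SE 0.178, adjusted p = 0.176). Cx3cr1, the receptor for the neuronal chemokine fractalkine, had 0.236, 3.88 and 0.000 in cKO females against 2.02, 1.85 and 0.108 in control females, so that 1 library in each group went against the other 2 and its interval ran from -1.94 to 1.16.

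The remaining genes also lay on both sides of 0 in females. C1qa, C1qb and C1qc, which encode the 3 chains of C1q, had log2 changes of -0.38, 0.12 and 0.28, none with an adjusted p below 0.199. Ctss and Ctsd had log2 changes of 0.10 and 0.03, with intervals of -0.26 to 0.45 and -0.31 to 0.37. Sall1 had 1.59, 3.69 and 3.37 in cKO females, against 1.92, 1.4 and 1.32 in control females (log2 change 0.68, adjusted p = 0.122), and the tetraspanin Cd53 3.69, 6.94 and 5.97 against 2.74, 3.00 and 4.64 (log2 change 0.60, adjusted p = 0.119). For both genes cKO female 1 lay within the controls. Tmem119, a membrane protein found in brain mainly in microglia, had 2.29, 0.000 and 0.371 in cKO females, against 2.75, 2.75 and 2.14 in control females (log2 change -1.51, SE 0.476, adjusted p = 0.114). P2ry13 (an ADP receptor), Lpcat2 (a phospholipid acyltransferase) and Ly86 (the partner of a toll-like receptor homologue) had log2 changes of 0.27, 0.27 and 0.40, and Unc93b1, which carries toll-like receptors to endosomes, had an interval of -0.33 to 0.33. Itgam and Cd68 had wide intervals, -1.95 to 0.19 and -1.70 to 0.14. For Tmem119 the deposited levels were closer than the subtracted ones, 2.91, 2.42 and 2.83 FPKM against 3.48, 3.37 and 2.95 FPKM.

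Several of these female values lay near the background. The coverage of Tmem119 was 0.773 and 1.11 times the background in cKO females 2 and 3, against at least 4.66 times in each control female. That of Selplg was 1.27 and 0.855 times the background, against at least 2.61 times. Without subtraction 10 of the 24 log2 changes had the other sign, and on deposited FPKM 6 had. Leaving out cKO female 1, so that only the 2 libraries of high background stood for the group, called 6 of the genes (Fcgr3, C1qc, Sall1 and Cd53 higher, Gpr34 and Tmem119 lower), where 38.6% of all genes tested in that fit were called, so that the share of microglia genes was not above the background. With both cKO females 2 and 3 left out, the median log2 change was 0.02 over 27 tested microglia genes, against 0.01 over all genes. That comparison rests on 1 cKO female library, which was assumed to vary like the other groups. Summed subtracted levels of 8 markers of border-associated macrophages, which share many genes with microglia, were 4.89, 13.2 and 10.4 in cKO females, against 2.69 to 4.48 in control females, and 3.70 to 3.99 in cKO males, against 3.76 to 4.46 in control males. Of these 8 genes 2 could be tested and 0 were called in either sex, where 0.0731% of all genes were called in females and 0.00665% in males. None was at 0 in all libraries. The platelet and macrophage chemokine Pf4 made up most of the excess, at 6.57 and 6.38 in cKO females 2 and 3. The part of such cells in the female values was not tested.

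Within males no microglia gene was called either, where 0.00665% of all genes were, and 0 of 24 had an unadjusted p under 0.05, against 2.33% of all genes. The median log2 change was -0.07, against 0.03 over all genes, with 8 genes above 0 and 16 below. Gpr34 had subtracted levels of 9.40, 9.72 and 11.5 in cKO males, against 10.4, 11.8 and 14.8 in control males, with overlap (log2 change -0.25, interval -0.57 to 0.06). Aif1 (IBA1, an actin-binding protein used to stain microglia) had 4.38, 4.10 and 3.16 in cKO males, against 4.03, 6.54 and 5.15 in control males (log2 change -0.38, interval -0.73 to -0.03, adjusted p = 1).

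Cx3cr1 was the only tested gene whose subtracted levels did not overlap in males, where 4.65% of all genes were lower without overlap and 7.4% higher. It had 0.568, 0.365 and 0.608 in cKO males, against 0.799, 1.71 and 1.08 in control males. At this low level the log2 change was -0.72 with an interval of -2.27 to 0.83, and adjusted p = 1. For the well-measured genes the intervals in males were narrower: -0.42 to 0.29 for Ctss, -0.42 to 0.29 for P2ry12, -0.26 to 0.30 for C1qc and -0.42 to 0.25 for C1qb. Smaller changes than these bounds could not be resolved with 3 libraries a group.

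**Figure D3:**
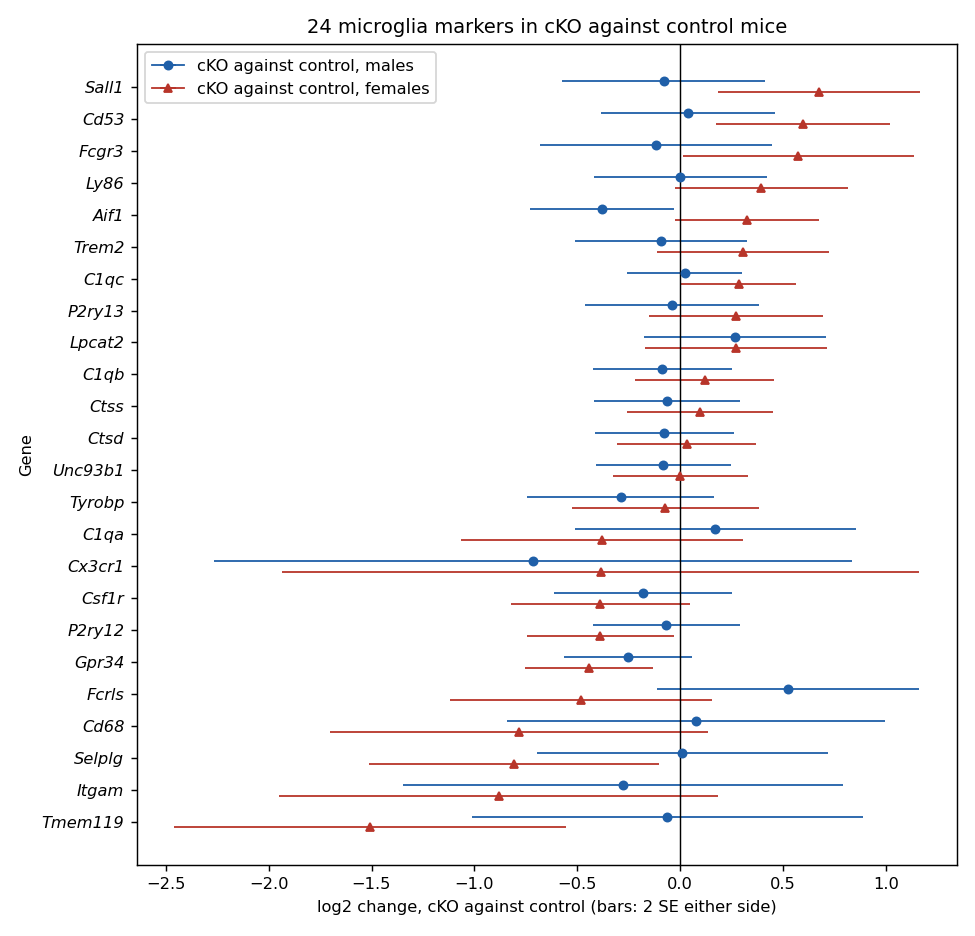
Points are log2 changes of 24 microglia genes in cKO against control, in males (circles) and females (triangles), on the scale log2(subtracted level + 0.5), and bars reach 2 SE to either side. No gene passed the threshold in either sex; the lowest point is Tmem119 in females at -1.51.

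The 8 genes below the filter were not tested and are given as values. Laptm5, a lysosomal membrane protein of blood and immune cells, had subtracted levels of 0.754, 0.750 and 0.884 in cKO males, against 1.26, 1.25 and 1.18 in control males, and Irf8 had 0.283, 0.182 and 0.334, against 0.420, 0.345 and 0.338; neither overlapped. On deposited FPKM both overlapped. In cKO females Laptm5 was 1.06, 0.000 and 0.000, against 1.11, 0.859 and 0.580 in control females. The lectin Siglech likewise had 0.000 in cKO females 2 and 3, and so did Spi1 and Irf8, while Fcer1g, the signalling chain of Fc receptors, had 0.406, 0.000 and 0.112 in cKO females, against 0.599, 0.493 and 0.499 in control females. The granulocyte colony-stimulating factor receptor Csf3r had 0.749, 0.517 and 0.529 in cKO females, against 0.463, 0.539 and 0.389 in control females, and the secreted glycoprotein Olfml3 had 1.18, 0.000 and 0.590, against 0.524, 1.26 and 0.548.

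Taking the mean of the effects in both sexes, again no gene was called, where 0.0332% of all genes were. Only Gpr34 (log2 change -0.35, SE 0.110, adjusted p = 0.222) and Tmem119 (log2 change -0.78, SE 0.336, adjusted p = 0.235) had an unadjusted p under 0.05, which 20.3% of all genes had. The difference of the effects, male minus female, asks whether deletion acted otherwise in the sexes. It was called for 0 microglia genes, and for 0 of all 15048 genes; 2 microglia genes and 939 genes in all (6.24%) had an unadjusted p under 0.05. These were Aif1 (difference -0.70, SE 0.248, adjusted p = 0.585) and Fcrls, an Fc receptor-like gene of mouse microglia (difference 1.01, SE 0.45, adjusted p = 0.585). Aif1 had 3.54, 4.12 and 3.14 in cKO females, against 2.45, 3.02 and 2.84 in control females, the other direction from males. Fcrls had 0.847, 1.74 and 0.421 in cKO females, against 1.51, 1.59 and 1.30 in control females, and 1.83, 2.11 and 3.50 in cKO males, against 1.89, 1.33 and 1.36 in control males. Its groups overlapped in both sexes. Without cKO female 1, 5 genes passed for the mean effect, where 29.6% of all genes did, and 4 for the difference, where 19.3% did.

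The controls of both sexes were compared last. Gpr34, Aif1 and Fcgr3 were higher in control males than in control females, 3 of 24 genes, where 11.7% of all genes were called (6.57% higher and 5.18% lower). Of the 24 log2 changes 22 were above 0, against 43.2% of all genes, and their median was 0.35, against -0.07 over all genes. Trem2 and Selplg are among these 22 and reached the filter's minimum mean of 1 through their male libraries. Their signs therefore depend on the filter and add no support. With no filter, 30 of all 32 log2 changes were above 0, with a median of 0.35, against -0.10 over all genes. The background in control males was below that in control females in every library, so sex and background cannot be told apart in this contrast.

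Gpr34 (ENSMUSG00000040229, chrX:13632089-13640858, plus strand) had subtracted levels of 10.4, 11.8 and 14.8 in control males, against 6.80, 5.63 and 8.09 in control females. The log2 change was 0.81 (SE 0.156, adjusted p = 0.0102 by limma). Deposited levels did not overlap either, at 12.0, 12.5 and 16.4 FPKM in control males against 8.06, 6.68 and 9.10 FPKM in control females. The gene lies inside Cask on the opposite strand, and whether strand was used in counting is not given in the sources used here. Cask had 18.4 ± 1.63 FPKM in control males and 19.5 ± 2.02 FPKM in control females (SD, n = 3 each).

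Aif1 (ENSMUSG00000024397, chr17:35170991-35176068, minus strand) had subtracted levels of 4.03, 6.54 and 5.15 in control males, against 2.45, 3.02 and 2.84 in control females (log2 change 0.79, SE 0.175, adjusted p = 0.018). Fcgr3 (ENSMUSG00000059498, chr1:171051174-171064935, minus strand) had 9.19, 9.22 and 10.3 in control males, against 4.82, 4.04 and 4.95 in control females (log2 change 0.98, SE 0.282, adjusted p = 0.0467). Neither gene overlapped between the groups. Fcgr3 shares sequence with its paralogs, between which reads can be split: Fcgr2b, the inhibitory Fc receptor, had 1.19 ± 0.399 FPKM in control males and 2.75 ± 0.395 FPKM in control females. Fcgr4, an activating receptor, had 0.121 ± 0.0591 FPKM in control males and 0.606 ± 0.424 FPKM in control females, and Fcgr1, the high-affinity receptor, had 1.29 ± 0.321 FPKM in control males and 1.0 ± 0.168 FPKM in control females (SD, n = 3 each). These paralog levels are deposited FPKM, from which the background was not subtracted. Summed over transcripts as they are, it was 0.279, 0.142 and 0.868 in control females, against at most 0.0497 in control males. Leaving out control female 1, control female 3, control male 2 or control male 3 left 1 called gene, Gpr34, with 3.57% to 6.18% of all genes called. Over the 12 fits that leave out 1 library, Fcgr3 passed in only 2, Aif1 in 8 and Gpr34 in 12. Leaving out cKO female 2, which enters the shared estimate of spread, gave 6, with 15.1% of all genes called.

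Genes just short of the threshold pointed the same way without passing it. Tyrobp had 7.80, 8.36 and 7.63 in control males, against 4.65, 4.36 and 4.96 in control females (log2 change 0.71, SE 0.227, adjusted p = 0.0703). P2ry12 had 14.8, 13.2 and 14.2 in control males, against 10.5, 7.88 and 10.6 in control females (log2 change 0.53, SE 0.178, adjusted p = 0.0843). Its gene lies inside Med12l, which had 11.5 ± 0.850 FPKM in control males and 10.6 ± 1.57 FPKM in control females. Ctss, whose start region is printed above, had 64.4, 71.9 and 68.7 in control males, against 44.4, 41.9 and 56.8 in control females (log2 change 0.52, SE 0.178, adjusted p = 0.0853). In these 3 genes the groups did not overlap, and Trem2 had a log2 change of 0.56 (adjusted p = 0.113), also without overlap.

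Of the 24 tested genes 10 were higher in control males without overlap on the subtracted scale, where 21% of all tested genes were, and 0 were lower, where 27.5% were. Trem2, among the 10, passed the filter through male libraries. On deposited FPKM 8 of the 24 were higher and 2 lower (Cd68 and Lpcat2), against 14.5% and 36% of all tested genes. With the untested genes included, 14 of 32 were higher and 0 lower on the subtracted scale, adding Fcer1g, Siglech, Laptm5 and Spi1. On deposited FPKM 9 of 32 were higher and 2 lower. The 7 receptors and adaptors, the 4 purinergic and chemokine receptors and the 3 C1q genes all had log2 changes above 0, with medians of 0.41, 0.33 and 0.41. Among the 7 are Trem2 and Selplg, which passed the filter through male libraries. Of the 4 tested lysosomal genes 3 had log2 changes above 0, among them Ctss and Unc93b1, which did not overlap on the subtracted scale and were not called. Ctsd had 0.04 (interval -0.29 to 0.38) and Cd68, a lysosomal membrane protein of macrophages, -0.19 (interval -1.11 to 0.73). Sall1 had 0.18 (interval -0.31 to 0.67). Csf1r had 8.21, 7.77 and 7.17 in control males, against 6.58, 5.93 and 5.38 in control females, without overlap and without passing (log2 change 0.35, adjusted p = 0.343). It shares 15.1% of its exon bases with Hmgxb3 on the other strand. Itgam shares 68.7% with the predicted gene Gm49368, and Ctsd 34.4% with Gm49369, so the values of these 3 genes are uncertain.

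**Figure D4:**
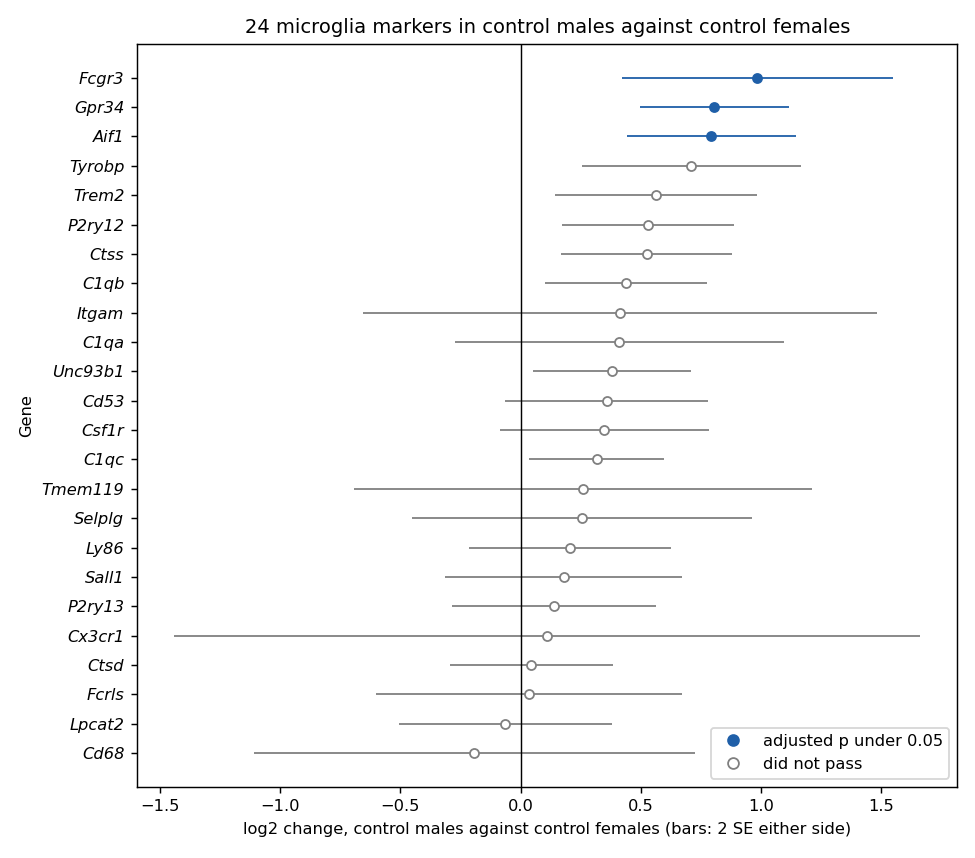
Points are log2 changes of 24 microglia genes in control males against control females on the scale log2(subtracted level + 0.5), with bars of 2 SE to either side and filled symbols for an adjusted p under 0.05. The 3 filled points are Fcgr3, Gpr34 and Aif1, and 22 of 24 points lie above 0.

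For Gpr34 and P2ry12 all 6 male libraries lay above all 6 female libraries on the subtracted and deposited scales, which 9.62% and 7.81% of the genes tested did; with 2 of 24, the share of microglia genes was near that background. These genes were picked after their values were seen.

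**Figure D5:**
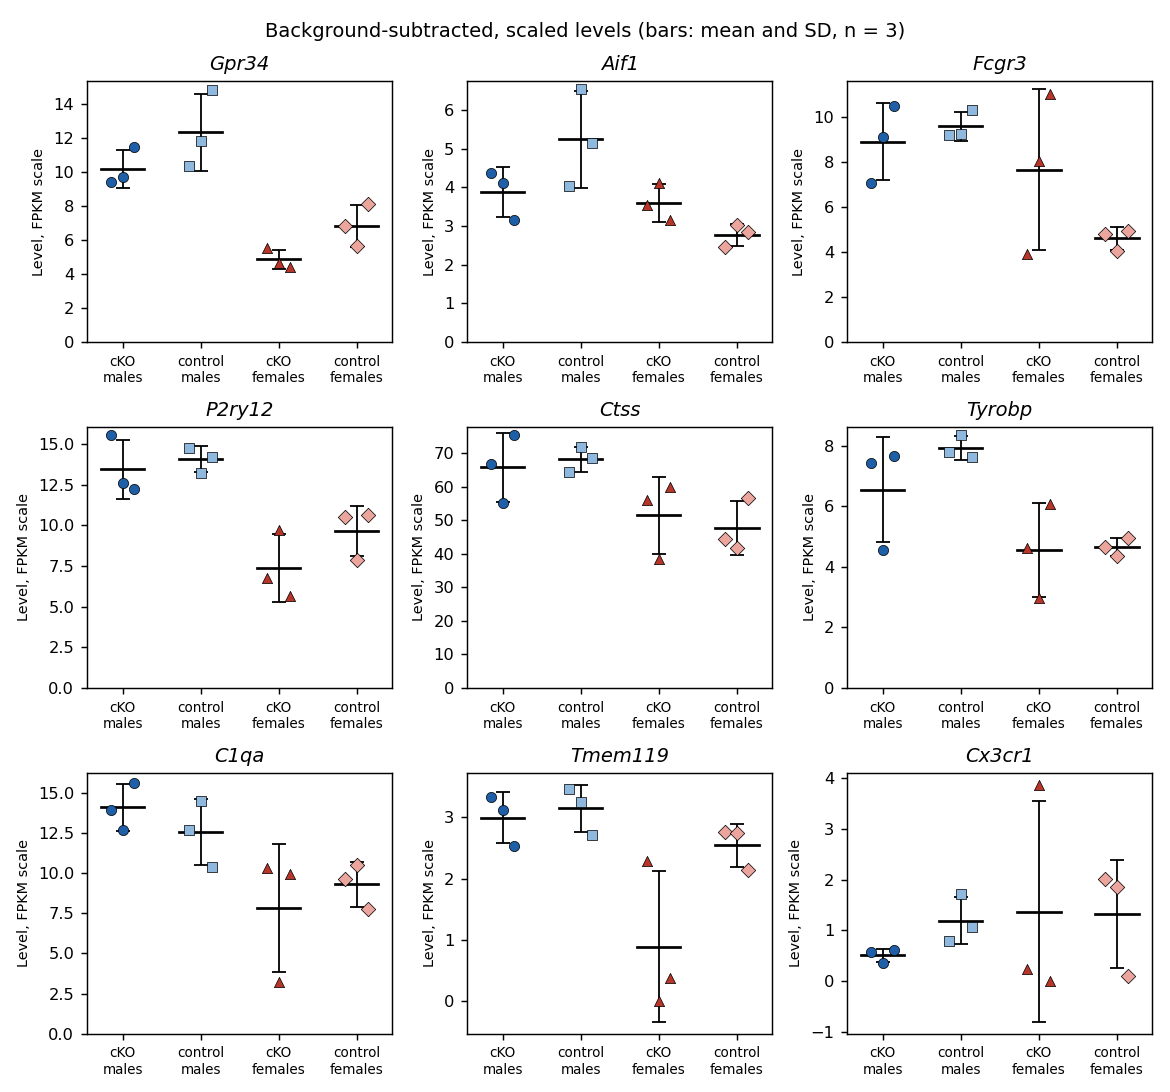
Each panel plots the subtracted levels (FPKM scale) of a gene in the 12 libraries, with cKO males, control males, cKO females and control females from left to right and lines for the mean and SD of 3. For Gpr34 and P2ry12 all male points lie above all female points, while for Tmem119 and Cx3cr1 the cKO females are widely spread.

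Markers of other cell types were called in the same contrast, where 6.57% of all genes were called higher in control males and 5.18% lower. Of 8 astrocyte markers 4 were called higher in control males (S100b, Aldoc, Gfap and Aqp4) and 0 lower, with a median log2 change of 0.63; of 8 oligodendrocyte markers 3 were higher (Mbp, Mobp and Ermn), with a median of 0.53; and of 8 neuron markers 2 were lower (Syt1 and Gad1), with a median of -0.31. Summed subtracted levels of the 32 microglia genes were 221.2, 221.0 and 207.7 in control males, against 153.8, 160.1 and 163.1 in control females. The astrocyte sum ran from 657.5 to 755.4 in control males, against 448.4 to 479.7 in control females, and the neuron sum from 565.3 to 580.1, against 653.5 to 705.9. The oligodendrocyte sum ran from 577.0 to 738.1 in control males, against 303.5 to 421.8 in control females. Of 16 blood cell markers only 5 were tested, all of red blood cells, and 0 were called, with a median log2 change of 0.89; their sum ran from 166.1 to 202.9 in control males, against 78.0 to 108.0 in control females, without overlap. Each of the 3 glial sums was higher in every control male than in every control female, and the neuron sum was lower. Of 8 endothelial and mural markers 6 were tested and 0 were called, with a median log2 change of -0.08. Of 5 choroid plexus markers 0 were called. Their sum was 3614, 1552 and 1234 in control males 1 to 3, against 16.5, 5108 and 11.3 in control females 1 to 3. The part of tissue composition, dissection or blood in these values was not tested.

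Genes of microglial biology outside the set were compared in the same way, against the same 6.57% of all genes called higher in control males and 5.18% lower. Of 38 other microglia-enriched genes 18 were tested. Those called higher in control males included the phagocytic receptor Mertk (log2 change 0.61, adjusted p = 0.0136) and the G-protein regulator Rgs10 (0.50, adjusted p = 0.0231), and 0 were called lower. Of 20 genes of activated or disease-associated microglia 12 were tested; Apoe, a lipid carrier made mainly by astrocytes (0.93, adjusted p = 0.00292), and the tetraspanin Cd9 (0.58, adjusted p = 0.0467) were higher, and cathepsin B (Ctsb, -0.27, adjusted p = 0.0311) lower. Only 3 of 16 inflammatory genes were tested, of which Ptgs2 (cyclooxygenase 2, also made by neurons) was lower (-0.76, adjusted p = 0.0211). Of 10 signals that act on microglia 8 were tested, of which Tgfb2 was lower (-0.60, adjusted p = 0.0404). In cKO against control, 0 genes of these 4 lists were called in either sex. Of all genes, 0.0731% were called in females and 0.00665% in males, so a count of 0 was near that background.

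Transcripts within a gene could not be followed with confidence. Of the 7 annotated Aif1 transcripts, ENSMUST00000172693 took 60.7% of the FPKM in control males and 56.7% in control females, but its level was 0.256, 10.3 and 9.78 FPKM in control males 1 to 3, while another transcript of like length (ENSMUST00000025257) had 7.72 FPKM in control male 1 and 0 in the other 2. The sum over transcripts was steadier, at 8.56, 14.2 and 10.7 FPKM. Gene totals were therefore used throughout.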

How the data were processed

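Per the labels, hippocampal total RNA was depleted of ribosomal RNA and made into libraries with a ScriptSeq kit. Alignment used HISAT2 2.0.4, quantification StringTie, on build GRCm38.p6, per the submitters' processing notes. The deposited tables give FPKM and coverage (the signal per base) for 137862 transcripts, with no counts; the annotation release and strand setting are not given in the sources used here, and 54495 of 54532 genes matched GENCODE M21.

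Coverage was summed per gene over the union exon length on the FPKM scale, the median of 1459 receptor genes was subtracted, values below 0 were set to 0, and libraries were scaled by median-of-ratios over the protein-coding genes whose mean reached 5. Genes were kept if their mean reached 1 and 3 or more libraries held 1 or more. limma 3.58.1 (R 4.3.3; trend, robust) fitted 4 group means to log2(level + 0.5), two-sided, with Benjamini-Hochberg adjustment over all genes and a threshold of 0.05; folds of low genes are understated on this scale. On simulated female data with 200 changed genes among 15288, 34 of 50 with a log2 change of 1 and 38 of 50 with 2 were called, 32 of 50 with -1 and 43 of 50 with -2, with 11 false calls. All 32 genes are accounted for; of other lists, up to 4 genes each were named, those past the threshold first, and 1 gene that this rule names is not reported here. The members and lists were chosen with earlier results of these data known. Alternatives were other backgrounds, scalings, pseudocounts (0.1 and 1) and filters, array weights, left-out libraries and a replicate block.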

Additional observations from a re-analysis of the deposited data

How the results depend on the processing

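Numbers are called microglia genes, and the number tested varied between settings, from 21 to 32. In cKO against control females, 0 of 24 became 6 of 32 on deposited FPKM without scaling. These were 5 higher and 1 lower, and 24.1% of all genes were called. Of the 24 genes tested in the main fit, only Trem2 and P2ry12 were among them. With array weights 4 of 24 were called (23.2%). Array weights gave 2 for the mean effect (22.9%) and 3 for the difference of effects (11.5%). Over the fits that leave out 1 library the counts ran from 0 to 6 in females, from 0 to 5 for the mean effect and from 0 to 4 for the difference, all above 0 only without cKO female 1 (38.6%, 29.6% and 19.3% of all genes called), which the array weights gave the lowest weight (0.137). In males the count was 0 under each of the 24 alternatives. For control males against control females, 3 became 5 with summed FPKM less its background (6.16%), 1 with no filter (1.4%), 11 with array weights (33.5%), 9 without both cKO females 2 and 3 (23.9%), and 8 with only the 2 groups compared (23.9%); leaving out 1 library gave 1 to 6 (3.57% to 18.6%). Over 24 alternatives Gpr34 passed in 23 (adjusted p 0.00114 to 0.0599), Aif1 in 17 (0.00257 to 0.0973) and Fcgr3 in 13 (0.00125 to 0.153). Of these, 12 leave out 1 library, and there Gpr34 passed in 12, Aif1 in 8 and Fcgr3 in 2. No called change reversed its sign. On deposited FPKM the median log2 change of all genes moved to -0.58 in this contrast, and that of all 32 microglia genes to 0.16. With a replicate block, 5 microglia genes were called in this contrast (10% of all genes) and 0 in the others (0% of all genes). The series design names pairs, but which libraries form them is not stated, and the main fits used no pairing. Same-numbered cKO and control libraries had deviations from their group means correlated at -0.30 to 0.38. With 3 libraries a group of unequal background and depth, this cannot decide whether the numbers mark pairs. The cause of the changes between settings was not tested. Depth of 1.16 Gb and background limit low genes in cKO female 2, and the 8 genes below the filter were tested in no main comparison.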
